A study of Mus musculus with 2 samples.

Results

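The genes described here are the nuclear genes of mitochondrial respiratory complexes II to V and of cytochrome c, chosen by their names on the array: Sdha to Sdhd, names beginning with Uqcr, Cyc1, Cycs, names beginning with Cox4 to Cox8, and names beginning with Atp5. The rule took 49 of the 37074 gene names on the array, and 46 of them were measured, which means that at least 1 of their probes was well above background on both arrays. Complex II had 4 names, complex III 9, cytochrome c 1, complex IV 17 and complex V 15. The other 3 names, Atp5s, Atp5sl and the pseudogene Atp5c1-ps, begin with Atp5 but are no subunit of the ATP synthase. Cox5b, a core nuclear subunit of complex IV, has no probe under that name here.

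Total RNA of unfertilised oocytes from C57BL/6 mice was measured on 2 single-colour Agilent arrays. One array held wild-type oocytes (Mul1 +/+) and the other Mul1 knockout oocytes (Mul1 -/-), so each genotype has 1 array and no spread between animals or pools can be given. The series design text gives 213 oocytes for the wild type and 123 for the knockout. How the knockout allele was made, the age of the mice and whether the oocytes of several females were pooled are not given in the sources used here. The comparison asks how the transcript profile of oocytes without Mul1, a ubiquitin ligase of the outer mitochondrial membrane, differs from that of wild-type oocytes. Without a second array per genotype no difference below has a test, and each value compares these arrays, not the genotypes.

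Complex II (succinate dehydrogenase) passes electrons from succinate to ubiquinone, complex III passes them on to cytochrome c, and complex IV (cytochrome c oxidase) passes them to oxygen. The proton gradient that complexes III and IV help to build drives complex V, the ATP synthase. Except for complex II, each complex joins nuclear-encoded subunits with subunits encoded by mitochondrial DNA, and several nuclear subunits of complex IV exist as paired isoforms that differ between tissues. The oocyte relies on this pathway for ATP, since it uses little glucose itself and takes up pyruvate, and it carries a very large store of mitochondria.

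Many promoters of these genes are known to hold sites for the nuclear respiratory factor NRF1, for ETS-family factors such as GABP, and for YY1. Windows from 250 bases before to 50 bases after the annotated start were matched for 37 of the 49 names, from RefSeq on GRCm38.p6, and 35 of those 37 were measured. The letters CGCATGCG (NRF1), CCGGAAGT (ETS) and AAGATGGCG (YY1) were searched on both strands. The windows shown are those of Cycs, Uqcr11 and Atp5g2, which carry an NRF1 match, and of the isoform pair Cox8a, with 2 ETS matches, and Cox8b, with none of these letters. Capitals mark the matches, and each window is written 5′ to 3′ on the strand of its gene.
Cycs promoter window: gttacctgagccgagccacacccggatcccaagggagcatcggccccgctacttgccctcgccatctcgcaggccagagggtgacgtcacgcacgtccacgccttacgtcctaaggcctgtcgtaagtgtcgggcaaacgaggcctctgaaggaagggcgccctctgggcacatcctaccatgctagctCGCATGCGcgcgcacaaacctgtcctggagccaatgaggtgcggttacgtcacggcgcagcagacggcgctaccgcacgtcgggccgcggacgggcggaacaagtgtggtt
Uqcr11 promoter window: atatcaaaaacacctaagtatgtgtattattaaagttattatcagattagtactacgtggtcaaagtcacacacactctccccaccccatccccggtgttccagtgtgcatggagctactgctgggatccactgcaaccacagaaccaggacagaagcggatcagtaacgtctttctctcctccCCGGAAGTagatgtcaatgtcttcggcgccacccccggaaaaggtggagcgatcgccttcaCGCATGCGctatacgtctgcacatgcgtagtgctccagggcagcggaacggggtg
Atp5g2 promoter window: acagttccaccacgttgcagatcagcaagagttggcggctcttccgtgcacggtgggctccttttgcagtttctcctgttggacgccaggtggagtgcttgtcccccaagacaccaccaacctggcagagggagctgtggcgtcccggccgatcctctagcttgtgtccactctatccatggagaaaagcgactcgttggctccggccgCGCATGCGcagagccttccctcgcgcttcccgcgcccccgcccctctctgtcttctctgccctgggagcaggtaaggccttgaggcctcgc
Cox8a promoter window: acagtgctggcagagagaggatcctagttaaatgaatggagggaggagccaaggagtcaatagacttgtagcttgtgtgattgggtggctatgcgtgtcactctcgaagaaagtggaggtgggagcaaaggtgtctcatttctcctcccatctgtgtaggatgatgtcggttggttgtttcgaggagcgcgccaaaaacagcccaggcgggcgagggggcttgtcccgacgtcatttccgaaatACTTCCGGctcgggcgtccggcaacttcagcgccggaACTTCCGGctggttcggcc
Cox8b promoter window: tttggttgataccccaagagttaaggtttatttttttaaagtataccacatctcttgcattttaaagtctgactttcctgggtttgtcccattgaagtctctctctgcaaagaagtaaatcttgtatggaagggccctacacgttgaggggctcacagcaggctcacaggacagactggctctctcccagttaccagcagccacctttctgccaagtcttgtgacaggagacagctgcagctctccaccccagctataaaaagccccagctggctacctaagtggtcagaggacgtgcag
These windows lie on the minus strand at chr6:50566520-50566819 (Cycs), chr10:80406772-80407071 (Uqcr11), chr15:102670998-102671297 (Atp5g2), chr19:7217567-7217866 (Cox8a) and chr7:140900397-140900696 (Cox8b). The NRF1 match begins 61 bases before the start of Cycs, 5 before that of Uqcr11 and 41 before that of Atp5g2. Uqcr11 also has an ETS match, 66 bases before its start.

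The NRF1 letters were present in the windows of 8 of the 35 measured members (22.9%), against 484 of 17492 coding genes (2.77%). These 8 were Uqcr11, Uqcrc1, Cycs, Cox6a1, Atp5g2, Atp5j, Atp5k and Atp5l. The ETS letters were found for 4 members (11.4%, against 5.69% of coding genes): Uqcr11, Uqcrh, Cox8a and Atp5h. The YY1 letters were found for 3 members (8.57%, against 2.14%), namely Atp5j, Atp5j2 and Atp5sl. The GC box GGGCGG was found for 14 members (40.0%) and 49.2% of coding genes. The 8 members with an NRF1 match had a median difference between the arrays of 0.10 (log2, range -0.066 to 0.22), and the 27 measured members without it 0.008 (range -0.37 to 0.43), so the ranges overlap. The same split gave 0.082 with and 0.061 without an ETS match. For YY1 it gave -0.17 with (range -0.28 to -0.066) and 0.072 without a match (range -0.37 to 0.43), so these ranges overlap too. The NRF1 and YY1 values depend on the probes read. At probes named by RefSeq alone, Atp5j2 read 0.125 and Atp5j 0.024, while Atp5sl, which is no subunit, stayed at -0.17. Among other members without an NRF1 match, Sdha (0.14), Atp5f1 (0.14), Atp5g1 (0.046) and Atp5g3 (0.023) then lay above 0 in place of below it. Atp5d, also without an NRF1 match, fell from 0.43 to 0.17. No median of these splits was taken at RefSeq probes alone. A match of letters is a description of the window and shows no binding.

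Where 2 signals are given for a probe or gene from here on, the first is that of the wild-type array and the second that of the knockout array. The targeted gene itself was read by the Mul1 probe NM_026689 at 3353 and 1074, a log2 difference of -1.61, while its other probe was dim on both arrays (19.3 and 23.12). On the knockout array this was still 67.9 times the lowest signal well above background, and the labels do not say which part of the gene was deleted, so the probe may lie inside or outside the deletion. The arrays are therefore named by their labels throughout. Among 56600 probes, the wild-type array had 37369 (66.0%) well above background and the knockout array 36488 (64.5%). Measured oocyte markers were 9 of 10, with summed signals of 120200 and 111100 and a median difference of 0.16. These 9 ranged from -0.21 (Dppa3) to 0.77 (Nlrp5, the one past 1.5-fold), with 5 above 0 and Bmp15 at 0.53. The remaining oocyte marker, Figla, passed background on the wild-type array only (33.39 and 17.43). RNA of other cells was present as well. All 10 cumulus and granulosa markers were measured on both arrays (summed signal 167700 and 172100, differences from -0.96 to 1.16), all 10 myeloid markers were at least 2-fold higher on the knockout array (10170 and 33670, median 1.82), and all 5 red-cell markers were at least 2-fold lower (59850 and 19220, median -1.39). Of 5 oviduct markers 4 were at least 1.5-fold higher (49680 and 95090, median 0.76). In bulk RNA such as this, fewer cells of a type and less RNA per cell cannot be told apart, and the part of these cells in the values below was not tested.

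The respiratory genes lay close together on both arrays. A difference is the log2 signal of the knockout array less that of the wild-type array, each first scaled to its own 75th percentile over probes. The 46 measured members had a median difference of 0.066, from -0.37 (Atp5g3) to 0.43 (Atp5d), with 27 above 0 and 19 below. Over all 22921 measured genes the median was 0.029, with 54.8% of genes above 0, against 58.7% of the members. No member was 1.5-fold apart (0.585 on the log2 scale) in either direction, whereas 7.84% of all measured genes passed 1.5-fold upward on the knockout array and 5.19% downward. None was 2-fold apart, against 4.29% of all genes in either direction. Bright probes differ less between arrays than dim ones, so the members were also set beside genes within their signal range. Signals were not matched inside that range, where the members are brighter. At signals of 1000 or more the median was 20870 for member probes and 4168 for all probes. Between signals of 1054, the 10th percentile of the members, and 137800, their highest, 4.36% of 7515 genes were at least 1.5-fold apart and the median was 0.017. The 41 members in that range had a median of 0.075, with 26 above 0 and 15 below. With spike-in controls in place of the 75th percentile every value is higher by 0.135, and 39 of the 46 members lie above 0. The split of all genes at least 1.5-fold apart then moves from 60.1% higher to 77.3% higher, so the direction of a small difference depends on the scaling.

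**Figure D1:**
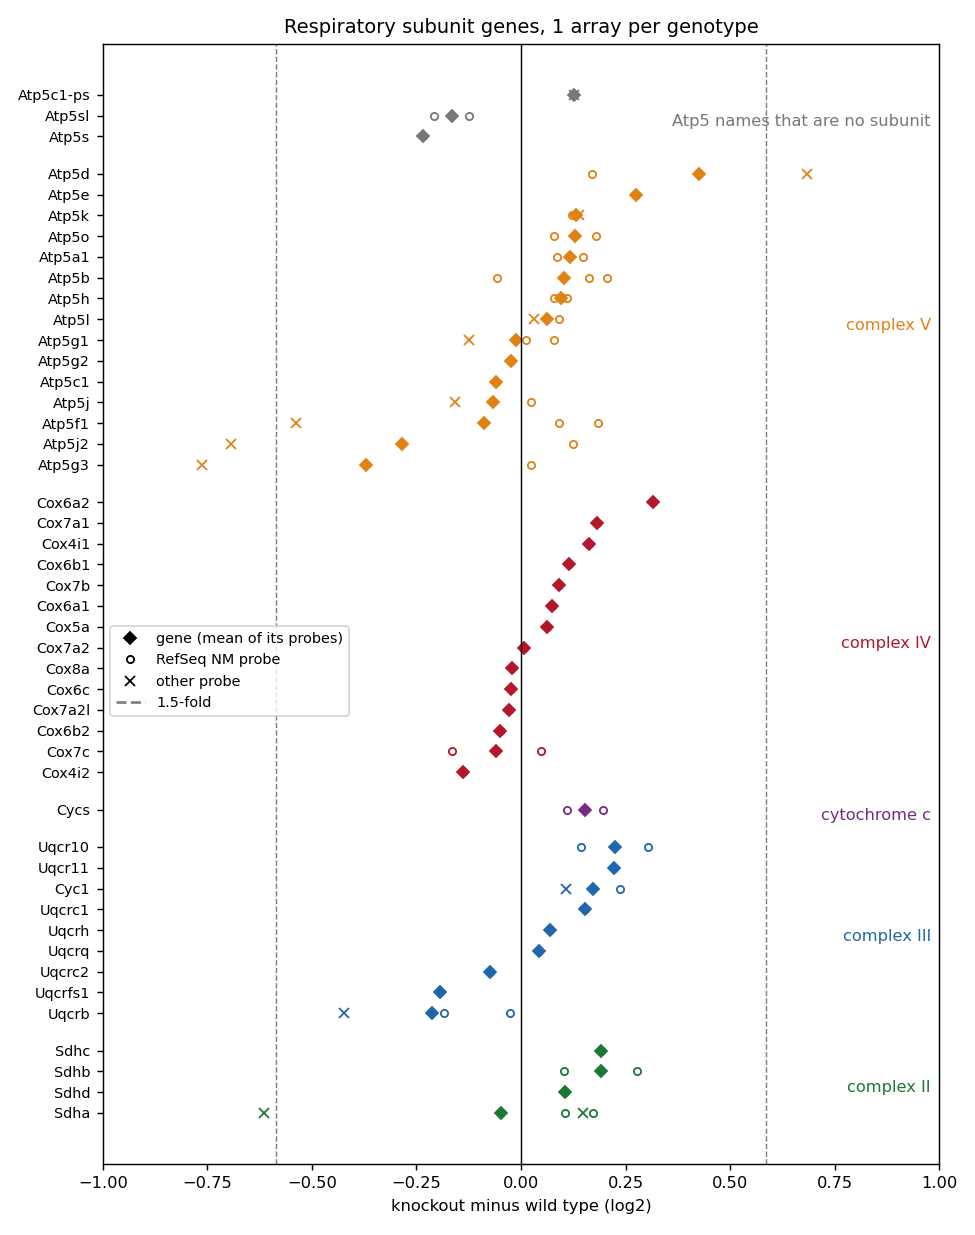
Difference between the knockout and the wild-type array (log2, x axis) for the 46 measured members, grouped by complex on the y axis. Diamonds are genes (means over probes), open circles are probes named by a RefSeq NM accession, crosses are other probes, and dashed lines mark 1.5-fold. No diamond lies outside the dashed lines, and the crosses of Atp5d, Atp5g3, Atp5j2 and Sdha do.

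The size of these differences was set against 2 estimates of measurement error, both technical. Atp5g2, a c-ring subunit gene, is printed at 10 spots on each array, which read from 78570 to 89870 in the wild type and from 70950 to 88610 in the knockout. The spots of the arrays overlap, and the difference was -0.024 ± 0.045 (SD, n = 10 spots). The scanner software's own error was 0.204 for the median member. It was also 0.204 for Atp5g2, well above the spot SD of 0.045. Cox4i2 (624.7 and 554.5) and Cox6a1 (135800 and 139800) had the same error. Except for dim probes, this error is thus nearly a fixed cutoff and not a spread measured for each probe. Set against the mean error of their probes, 8 of the 46 members had a larger difference, while 43.2% of all measured genes did. Most measured genes are dimmer than the members, as 67.1% lie below a signal of 1054. Among probes with a signal of 1000 or more, 7 of 62 member probes and 3768 of all 13035 differed by more than their error. Of the 8 members, Uqcr10, Uqcr11, Cox6a2, Atp5d and Atp5e had higher values on the knockout array, and Atp5g3, Atp5j2 and Atp5s lower ones. When the probes of a gene are taken to err independently, which makes its error smaller, the count is 13 of 46 against 49.5% of all genes, with Sdhb, Cyc1, Cycs, Uqcrb and Atp5sl added. Neither estimate covers the spread between oocyte pools, which 1 array per genotype cannot show.

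Complex II had the highest median of the complexes, 0.15 over its 4 genes, 3 of them above 0, although the ranges of all complexes overlap and no difference between complexes could be tested. Sdhb, the iron-sulphur subunit, read 12880 and 14370 (0.19). Sdhc, which anchors the enzyme in the membrane and binds haem, read 7052 and 7879 (0.19, the highest of the complex). Its partner anchor Sdhd read 16660 and 17530 (0.11). All of these were slightly higher on the knockout array. Sdha, the flavoprotein that oxidises succinate, was the lowest at -0.048 as the mean of 4 probes, with signals of 650.7 and 615.5. Those probes disagree: the pair named by RefSeq NM_023281 read 0.10 and 0.17 at signals of 13540 and 14220 and of 2788 and 3073, and of the remaining pair, both dim, the Ensembl probe read 0.15 (54.07 and 58.56) and AK005350 -0.615 (87.86 and 56.1). At the RefSeq probes alone all 4 complex II genes were above 0, with a median of 0.165.

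Complex III had a median of 0.069 over 9 genes, 6 above 0 and 3 below. The highest were both small subunits of the membrane part, Uqcr10 (19320 and 22060, 0.22) and Uqcr11 (20940 and 23890, 0.22). Cyc1, cytochrome c1, which hands electrons to cytochrome c, read 14430 and 15890 (0.17). Uqcrc1 (0.15), a core protein, Uqcrh (0.069), the hinge protein, and Uqcrq (0.042) were above 0, and the other core protein Uqcrc2 (-0.074) was below. The lowest mean was that of Uqcrb, which helps to form the ubiquinone-binding region, at 1427 and 1205 (-0.21). Its RefSeq probes read -0.026 and -0.19 and its dim Ensembl probe -0.42, all below 0. Uqcrfs1, the Rieske iron-sulphur protein, read 19370 and 16550 (-0.19), and it was the lowest of the complex at RefSeq probes alone, where Uqcrb was at -0.11, and at the brightest probe of each gene, where Uqcrb was at -0.026. A further probe under the name Uqcrfs1, AK090298 at chr13:30639055-30639114 (mm9), lies on the opposite strand to the RefSeq probe. Its signal was well above background in the wild type (48.87) and not in the knockout (13.88), at least 3.02-fold lower on the knockout array when the latter is set at the lowest signal well above background. Genes of this one complex thus lay on both sides of 0.

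Cytochrome c, the mobile carrier between complexes III and IV, is encoded by Cycs, whose NRF1 match is shown above. It read 5682 and 6175 (0.15), with 0.11 and 0.20 at its 2 probes, both above 0. The testis form Cyct, which the name rule does not take, was near background on both arrays (37.51 and 34.61, -0.084).

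Complex IV had a median of 0.036 over 14 measured genes, 8 above 0 and 6 below. This was the lowest of the complexes, but without a filter on dim probes it was 0.075, above complex III (0.069) and complex V (0.061). The ubiquitous form of each isoform family was read far above background on both arrays. Cox4i1, the usual form of the regulatory subunit IV, read 72320 and 79090 (0.16), and its counterpart Cox4i2, known from lung and from low oxygen, read 624.7 and 554.5 (-0.14, the lowest of the complex). Cox6a1, the form of subunit VIa outside muscle, read 135800 and 139800 (0.075). Cox6a2, the heart and skeletal muscle form, was the highest of the complex at 0.32, but from a dim probe, with signals of 50.64 and 61.63, or 3.94 and 3.9 times the dimmest signal that counted as well above background. With normexp background correction it read 0.18, no higher than Cox7a1 (0.184), and with quantile normalisation 0.26. The forms of subunit IV thus lay on different sides of 0, each by less than the scanner error of 0.204, and those of subunit VIa on the same side.

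In subunit VIb, the ubiquitous Cox6b1 read 4844 and 5124 (0.11) and the testis form Cox6b2 1166 and 1101 (-0.050). In subunit VIIa, Cox7a2 read 35050 and 34470 (0.008), the muscle form Cox7a1 2370 and 2627 (0.18), and Cox7a2l, which takes part in joining complexes III and IV into supercomplexes, 55480 and 53170 (-0.029). Both measured muscle forms of complex IV thus lay above 0 and its only measured testis form, Cox6b2, below it. Cox7a1 and Cox6b2 did so by less than the scanner error of 0.204. The value of Cox6a2 rests on a dim probe, and Cox6b2 read 0.085 with spike-in scaling. Cox7b read 15170 and 15780 (0.090), while its testis counterpart Cox7b2 was not well above background on either array. Cox8a, the ubiquitous subunit VIII, read 68290 and 65750 (-0.022), and neither Cox8b, the form of muscle and brown fat, nor Cox8c, the form of testis, was well above background. For these 3 genes no difference is given. The remaining genes of the complex, Cox5a (0.063), Cox6c (-0.024) and Cox7c (-0.060), lay within 0.1 of 0.

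**Figure D2:**
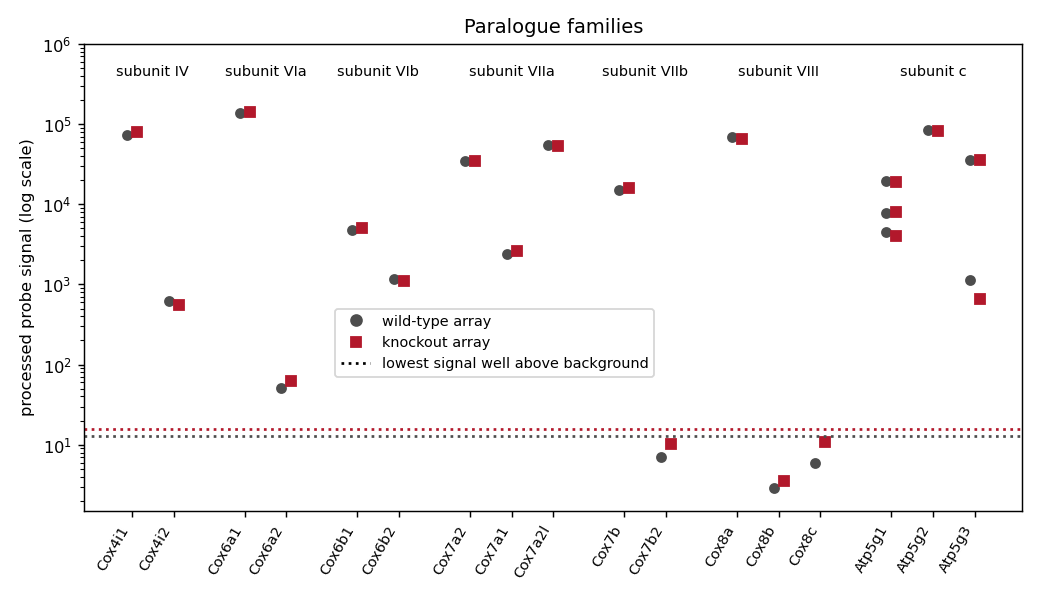
Processed signal on a log scale (y axis) of each probe of the 7 paralogue families on the wild-type (circles) and the knockout array (squares), with the lowest signal well above background of each array as dotted lines. Signals of different probes are not comparable with each other. Cox7b2, Cox8b and Cox8c lie under the dotted lines on both arrays, and the other genes above them.

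Markers of the tissues these isoforms are named for were then read. Of 9 heart and skeletal muscle markers 4 were measured, with a median of 0.26 and summed signals of 3623 and 4451. Most of that sum is cardiac troponin I, Tnni3 (3290 and 4103, 0.35). The highest was Myh7 (0.45) and the lowest Actc1 (-0.16). Skeletal actin Acta1 (13.86 and 19.59) and myoglobin Mb (5.311 and 19.21) passed background on the knockout array only. Creatine kinase Ckm, the troponin gene Tnnt2 and the myosin light chain Myl2 were not well above background on either array. Of the brown fat markers Cidea was measured (0.056) and Ucp1 was not. Of 5 male germ cell markers 3 were measured, from -0.21 (Prm2) to 0.16 (Tnp1), with summed signals of 107.7 and 102.7. The part of such cells in the signals of Cox6a2, Cox7a1 and Cox6b2 was not tested.

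Complex V had a median of 0.061 over 15 genes, 8 above 0 and 7 below, and held both the highest and the lowest member of all complexes. In the catalytic head, Atp5a1 (0.12) and Atp5b (0.10), the alpha and beta subunits, and Atp5c1 (-0.060), the gamma shaft, were close to 0. Atp5e, the small epsilon subunit at the foot of that shaft, read 23830 and 28200 (0.28) at a single RefSeq probe. Atp5d, the delta subunit beside it, had the highest mean of all members, 0.43 from signals of 1078 and 1416, but its RefSeq probe read 0.17. In the stalk that holds the head in place, Atp5o (OSCP) read 0.13 and Atp5h (subunit d) 0.095, while Atp5j (subunit F6) read -0.066 and Atp5f1 (subunit b) -0.089. In the membrane part, Atp5k read 0.13 and Atp5l 0.061, and Atp5j2 (subunit f) -0.28, from 1856 and 1491.

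The identical mature subunits of the c-ring are encoded by 3 genes that differ in their import peptides. As means over probes, Atp5g3 was lower than the other 2. Atp5g1 read 8727 and 8470 (-0.011), Atp5g2 84450 and 81210 (-0.024), and Atp5g3 6357 and 4808 (-0.37, the lowest of all members). The first 2 lay within 0.045 of 0, the SD between the spots of Atp5g2, although the 3 probes of Atp5g1 ranged from -0.12 to 0.080.

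The extremes of complex V rest on single Ensembl probes. Atp5g3 was read at 35820 and 35600 (0.023) by its RefSeq probe NM_175015 at chr2:73746519-73746578 (mm9), and at 1128 and 649.6 (-0.76) by the Ensembl probe ENSMUST00000142768 at chr2:73746848-73746907, 329 bases upstream. Atp5d was read at 15730 and 17310 (0.17) by NM_025313 at chr10:79608250-79608309 and at 73.83 and 115.9 (0.68) by ENSMUST00000150347 at chr10:79604901-79604960, 3349 bases upstream. All 60 bases of that Ensembl probe lie in the promoter windows of Atp5d and end 59 and 99 bases before its 2 annotated RefSeq starts, so the probe is outside those transcripts. Atp5j2 was read at 23630 and 25190 (0.125) by NM_020582, whose 60 bases are spread over 724 bases of genome (chr5:145944710-145945433), as across an intron, and at 145.8 and 88.18 (-0.69) by ENSMUST00000200584 at chr5:145951088-145951147. The RefSeq probes of these 3 genes lay between 0.023 and 0.17, and the Ensembl probes beyond 1.5-fold, below 0 for Atp5g3 and Atp5j2 and above it for Atp5d. The first 30 of the 60 bases of each probe, 5′ to 3′, are shown because the sign or size of these genes depends on which probe is read.
Atp5g3 NM_175015: ccgaagactgtagtactggtgtcatggaaa
Atp5g3 ENSMUST00000142768: caaaagcaaagtggtataggagatagcacc
Atp5d NM_025313: gtattgaggccaatgaagccctagtgaagg
Atp5d ENSMUST00000150347: agaacccagagtcgtttgctgttagaaggc
Atp5j2 NM_020582: ttttcagctactgcatttcttacaaggaac
Atp5j2 ENSMUST00000200584: aagagacaacgggaagagcattaatgacac
Atp5f1 showed the same split, with 0.090 and 0.18 at its RefSeq probes and -0.54 at ENSMUST00000123959 (108.1 and 72.77).

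The same contrast between probe kinds was then read over all members. Of 77 member probes 73 were well above background on both arrays, and none was saturated. The 60 probes named by a RefSeq NM accession had a median of 0.090 and lay between -0.23 and 0.32, with 44 above 0. The 13 other probes had a median of -0.12 and lay between -0.76 and 0.68, with 6 above 0, and 4 of them were at least 1.5-fold apart. Their median signal was 113.4, against 20870 for the RefSeq probes. Among all probes on the arrays, 23.4% of those with a signal under 200 were at least 1.5-fold apart and 7.32% of those at 200 or more, and among member probes 3 of 8 and 1 of 65. Of the other probes, 10 have a RefSeq probe of the same gene on the same strand. In the genome 8 of these lie upstream of every such RefSeq probe, by 329 bases (Atp5g3) to 26351 (Sdha). Also 8 read below the RefSeq value, but not the same 8. The upstream Ensembl probes of Atp5d (0.68 against 0.17) and Sdha (0.15 against 0.14) read above it. The probes of Atp5g1 (-0.12) and Atp5l (0.032), which do not lie upstream, read below it. The part of low signal in these differences was not tested. Probes of 1 gene share its RNA and are not replicates.

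**Figure D3:**
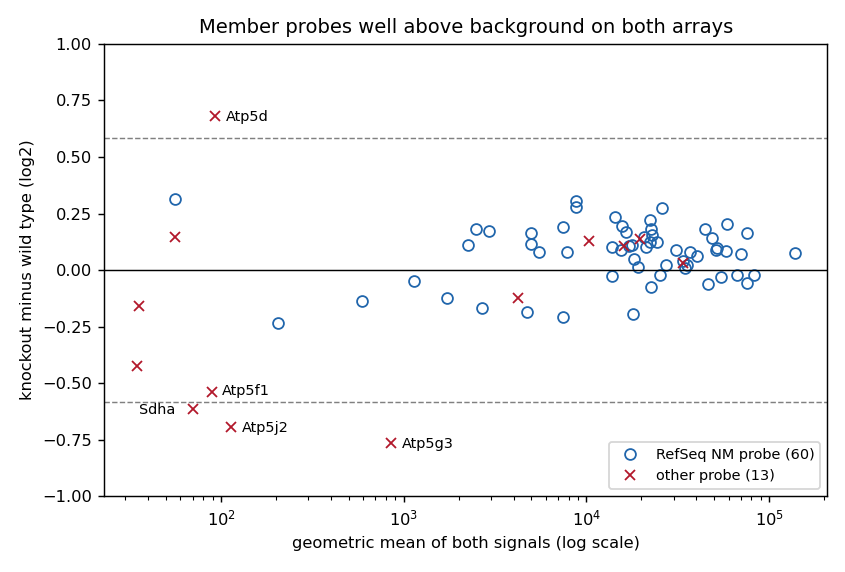
Difference between the arrays (log2, y axis) against the geometric mean of both signals (log scale, x axis) for the 73 member probes well above background on both arrays. Circles are the 60 RefSeq NM probes and crosses the 13 other probes, and dashed lines mark 1.5-fold. The RefSeq probes lie between -0.23 and 0.32, and 4 crosses lie outside the dashed lines.

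With the RefSeq probes alone, a reading added after the data were seen, 45 members were measured. Their median was 0.090, from -0.23 (Atp5s) to 0.32 (Cox6a2), with 32 above 0 and 13 below, and none was 1.5-fold apart. Of 15184 genes read the same way, 7.89% were higher by that fold and 2.83% lower, and their median was 0.044 with 57.8% above 0. The median of complex V then was 0.10, with 13 of 15 genes above 0 and all between -0.060 and 0.275. The values of complex III (0.069), cytochrome c (0.15) and complex IV (0.036) were the same as before to the digits given. Under this reading Sdha (0.14), Atp5f1 (0.14), Atp5g1 (0.046), Atp5g3 (0.023), Atp5j (0.024) and Atp5j2 (0.125) lie above 0 in place of below it.

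**Figure D4:**
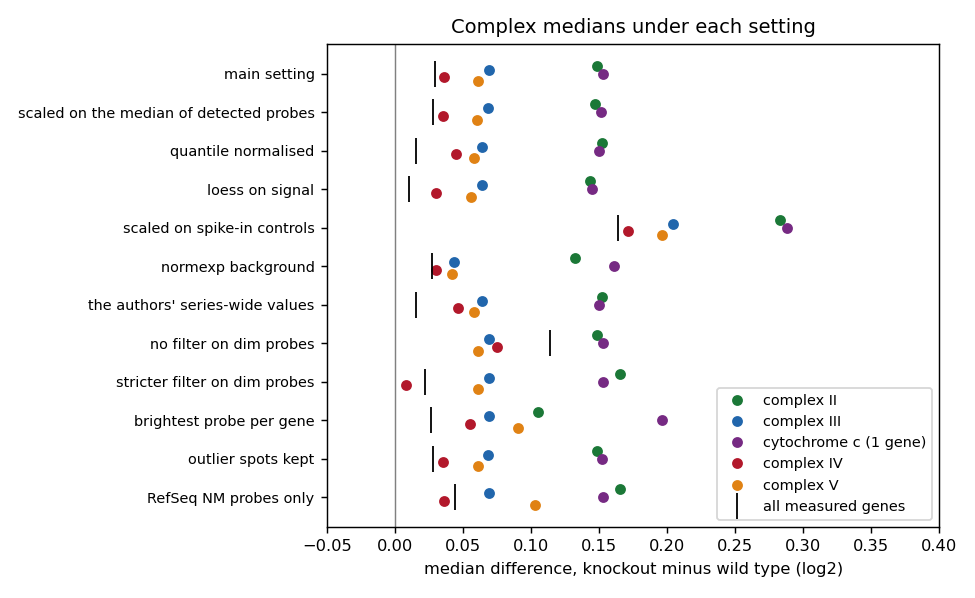
Median difference between the arrays (log2, x axis) of each complex under the main setting and 11 alternatives (y axis), with the median of all measured genes as a black tick. Complex II and cytochrome c lie to the right of the other complexes in each setting, and all values move right together when spike-in controls set the scale.

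The names that begin with Atp5 but belong to no subunit were read apart. Atp5s and Atp5sl, which RefSeq now names Dmac2l and Dmac2, read -0.23 (223.8 and 186.0) and -0.17 (3861 and 3364), and the pseudogene Atp5c1-ps 0.13 (9969 and 10640). The pseudogene and its parent Atp5c1 (-0.060) lay on different sides of 0, and how far the parent's RNA hybridises to the pseudogene's probe was not tested. Of the 77 member probes 2 shared a run of at least 25 bases with a probe of another name, 1 of Atp5h and 1 of Cox6a1.

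Genes that work with these complexes were also close to 0. All 39 assembly factors and inhibitors on the list were measured, with a median of 0.028, 21 above 0 and 18 below, and none was 1.5-fold apart. The highest was Sdhaf1, an assembly factor of complex II, at 0.37 (1771 and 2240), and the lowest Pet117, an assembly factor of complex IV, at -0.34 from a dim probe (50.08 and 38.63). Of the 6 genes of these complexes that the name rule leaves out, the highest was Higd1a, a complex IV associated protein induced by low oxygen, at 0.30 (35540 and 42750). Of 10 transcriptional regulators of respiratory genes 9 were measured, with a median of -0.020, from -0.28 (Ppargc1b) to 0.23 (Pprc1). Both extremes are means of probes that lie on both sides of 0. These ranged from -0.64 to 0.078 for Ppargc1b (200.8 and 161.5) and from -0.33 to 0.56 for Pprc1 (158.4 and 181.9). The factors whose letters were searched above read -0.078 (Nrf1), -0.020 (Gabpa) and 0.016 (Yy1). Ppargc1a, the coactivator PGC-1 alpha, passed background on the wild-type array only, at a signal of 24.72.

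Of 6 mitochondrially encoded partners of complexes III to V, 4 had a probe under their name here, and COX3 and ATP6 were not analysed. All of the 4 had values below 0. CYTB, the cytochrome b of complex III, read 133100 and 114800 (-0.18). ATP8 of complex V read 37390 and 33400 (-0.13), and COX1 and COX2, the catalytic core of complex IV, -0.030 and -0.022. The median of these 4 was -0.080, and that of the 43 measured nuclear subunit and cytochrome c genes 0.069, with 26 of the 43 above 0. The difference between both sets was not tested. At spike-in scaling, which adds 0.135 to each value, all of the 4 but CYTB lie above 0, ATP8 barely.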

How the data were processed

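Total RNA was isolated on columns, then amplified and Cy3-labelled as cRNA with a low-input kit, per the labels' protocols. The deposited scanner tables hold spot intensity, which per the file headers is background-subtracted and detrended within each array by Agilent Feature Extraction 10.7.1.1 and is not scaled between arrays; the submitters' processing notes give version 9.5.1.1. Amplification of small, unequal RNA inputs can change ratios, which 1 array per genotype cannot show. The authors' series-wide intensity table, whose 2 columns have the same distribution, served as an alternative.

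Spots flagged as outliers were dropped (88 wild type, 84 knockout), spots of a probe were averaged as log2 processed intensity, and each array's 75th percentile was subtracted (807.6 and 789.6 as signals). A gene is the mean of its probes well above background on both arrays. Probe positions are on mm9 for design 074809, per the file headers, and no gene annotation of that build was used. Saturation, shared sequence and promoter letters were read with Python 3.11.15, and normexp used limma 3.58.1. Recovery of known shifts by the gene summary was tested on simulated data with the same noise for all probes. The counts were not checked in this way.

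The members, lists and rules were chosen with earlier results of these data known. Named in full are the extremes of each complex, isoform families, members whose probes differ by over 0.5, and members measured on 1 array or none. From other lists, genes 1.5-fold apart or the extremes are named. The cumulus and granulosa, myeloid, red-cell and oviduct markers are given as whole lists only. Members beyond these are given by difference. With 1 array per genotype no test was made.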

Additional observations from a re-analysis of the deposited data

How the results depend on the processing

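Another 10 ways of processing, and 1 added after the data were seen (RefSeq NM probes only), changed scaling, background, source, filters and probes. The spot SD used here, 0.043, is the median over 264 probes printed at 10 spots. Of 77 values for the members, the complexes and the 1.5-fold count, 69 stayed within this SD or within 1.5 times the count. Some settings nearly repeat each other, as quantile normalisation and the authors' values gave member medians of 0.069 and 0.07. Spike-in scaling (7 control probes, mean -0.135) moved the median to 0.201 for all members, 0.283 for complex II, 0.204 for complex III, 0.288 for cytochrome c, 0.171 for complex IV and 0.196 for complex V. The brightest probe per gene gave 0.105 for complex II. Without a filter on dim probes 2 members passed 1.5-fold, Uqcrfs1 (-0.989, with the AK090298 probe) and Cox8c (0.92, not well above background on either array). Among all genes, the counts 1.5-fold higher and lower were 1796 and 1190 in the main setting, 719 and 484 with normexp, 926 and 708 with a stricter filter, 5363 and 3281 with none, and 1198 and 430 at RefSeq probes. For the 46 single members 422 values moved by less than the spot SD and 82 by more, and the sign turned in at least 1 setting for 16 members: Sdha, Uqcrc2, Cox6b2, Cox6c, Cox7a2, Cox7a2l, Cox7c, Cox8a, Atp5b, Atp5c1, Atp5f1, Atp5g1, Atp5g2, Atp5g3, Atp5j and Atp5j2.

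No paired analysis was possible because each genotype has 1 array, whose replicate number 1 only names it. For the same reason no array was left out, no outlier sought among samples, and the precision of every difference between genotypes is unknown. Signal over background limits Cox6a2 and the other dim probes.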
